A study of Mus musculus with 12 samples.

Results

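The 10 p53 target genes described here are Cdkn1a, Mdm2, Ccng1, Plk2, Sesn1, Bbc3, Bax, Phlda3, Eda2r and Trp53inp1. They were chosen by symbol, as genes known to be switched on directly by the transcription factor p53, at a time when earlier results of these data were known. Each symbol matched 1 Ensembl gene among the 53452 genes of the deposited table, and all 10 were among the 16036 genes that passed the low-count filter. RNA was sequenced from cultured HSCs taken from the livers of WT mice. The labels leave HSC as an abbreviation, taken here to mean hepatic stellate cell, the vitamin A-storing pericyte of the liver. Fresh medium was given to each culture 12 h after isolation. In the DMSO 12 h group the solvent DMSO was added 12 h after the medium change and left for 12 h. Riociguat, a drug that stimulates soluble guanylate cyclase and so raises cGMP, was added 18 h after the change for 6 h, 12 h after it for 12 h, or together with it for 24 h. By the labels every culture was therefore collected at the same age, and DMSO matches the time of addition of the 12 h riociguat group but not that of the others. Each group has 3 libraries. The dose, the number of mice and whether replicates are separate isolations are not given in the sources used here, so p-values measure the spread between these libraries, which may be technical.

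p53, encoded by Trp53, is held at a low level by the ubiquitin ligase MDM2 and accumulates after DNA damage and other stress. It then binds paired copies of a decamer motif near its target genes, whose products halt the cell cycle, limit growth signalling, repair damage or start apoptosis. Mdm2 is itself a target, which closes a negative feedback loop. In liver fibrosis, p53 and its target p21 are known for the senescence of activated stellate cells.

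Library totals ran from 12953096 to 27358893 counts, and mitochondrial genes took 2.61% to 4.75% of the counts. The defining stellate cell genes Lrat, Reln, Des and Pdgfrb were detected, and none of the 51 marker genes of 7 cell classes was at 0 in all libraries. CPM is the usual depth-normalised count, here after TMM scaling. Summed markers of stellate cells were at 2389 ± 56.2 CPM after 24 h of riociguat and at 2084 ± 32.3 CPM in DMSO (SD, n = 3 each), with 5 of 10 called higher and 2 lower. The stellate sum was also above all DMSO libraries (2060 to 2121 CPM) after 6 h (2222 to 2279 CPM) and 12 h (2218 to 2323 CPM). At 12 h, 2 of the 10 stellate genes were called higher and 2 lower, and 7 had an unadjusted p under 0.05 in edgeR. At 6 h, 1 was called higher and 0 lower. Summed hepatocyte markers were at 697 ± 117 CPM after 24 h and at 1229 ± 33.1 CPM in DMSO, with 7 of 8 called lower. Summed endothelial markers were at 693 ± 23.2 CPM after 24 h and at 885 ± 42.2 CPM in DMSO, with 3 of 8 called lower and 1 higher. Summed cholangiocyte markers, a list that includes Spp1, ranged over 533 to 574 CPM in DMSO libraries. After 6, 12 and 24 h of riociguat they ranged over 501 to 548, 644 to 736 and 968 to 1006 CPM. Of the 5 genes, 1 was called lower at 6 h, 1 higher at 12 h and 1 higher at 24 h. The gene called higher at 24 h was the only 1 with a log2 fold change above 0. The other 4 were below 0, and the median of the list was -0.14. After 6 h, endothelial markers were at 1058 ± 39.2 CPM, with 2 of 8 called higher. Portal fibroblast and mesothelial markers were at 282 ± 16.1 CPM after 6 h and at 415 ± 37.1 CPM in DMSO, with 1 of 6 called lower. After 12 h, hepatocyte markers were at 1225 ± 152 CPM and endothelial markers at 834 ± 25.9 CPM, with 0 of 8 called in either list by edgeR or DESeq2 and 0 hepatocyte and 1 endothelial gene at an unadjusted p under 0.05. RNA of other cell types was therefore present in these cultures. The part of these shifts in the results on p53 target genes was not tested, and in bulk RNA fewer cells of a type and less RNA per cell cannot be told apart.

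Several p53 target genes were lower in riociguat cultures than in DMSO cultures, by modest amounts, and none was called higher. A gene is called changed where its Benjamini-Hochberg adjusted p, over all genes tested, is under 0.05 in edgeR's quasi-likelihood test. After 12 h, the comparison with matched timing, 4 of the 10 genes were called lower (Cdkn1a, Mdm2, Plk2 and Phlda3), beside 3.48% of all tested genes. After 6 h, 4 were called lower (Mdm2, Ccng1, Plk2 and Phlda3), beside 5.24%. After 24 h, 6 were called lower (these 4, Cdkn1a and Bbc3), beside 7.41%. In either direction, 9.72%, 5.66% and 13.4% of all tested genes were called at 6, 12 and 24 h. No member was called higher at any time in this test or in DESeq2, and none had an unadjusted p under 0.05 with a positive fold change, beside 2.18%, 4.48% and 5.94% of all tested genes called higher at 12, 6 and 24 h. The median log2 fold change of the 10 genes was -0.22 at 6 h, -0.20 at 12 h and -0.27 at 24 h, and that of all tested genes lay between -0.01 and 0.00. These comparisons share the DMSO libraries. In each, 5 of the 10 members had every riociguat library below every DMSO library. That held for 13.6%, 11.9% and 15.7% of all tested genes at 6, 12 and 24 h. The number called at 12 h fell to 2 without riociguat 12 h replicate 2. The number called at 6 h fell to 1 without DMSO replicate 2 or riociguat 6 h replicate 2 and to 2 without riociguat 6 h replicate 3. Trp53inp1 was called higher at all 3 times once DMSO replicate 1 was left out, as described with its values.

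**Figure D1:**
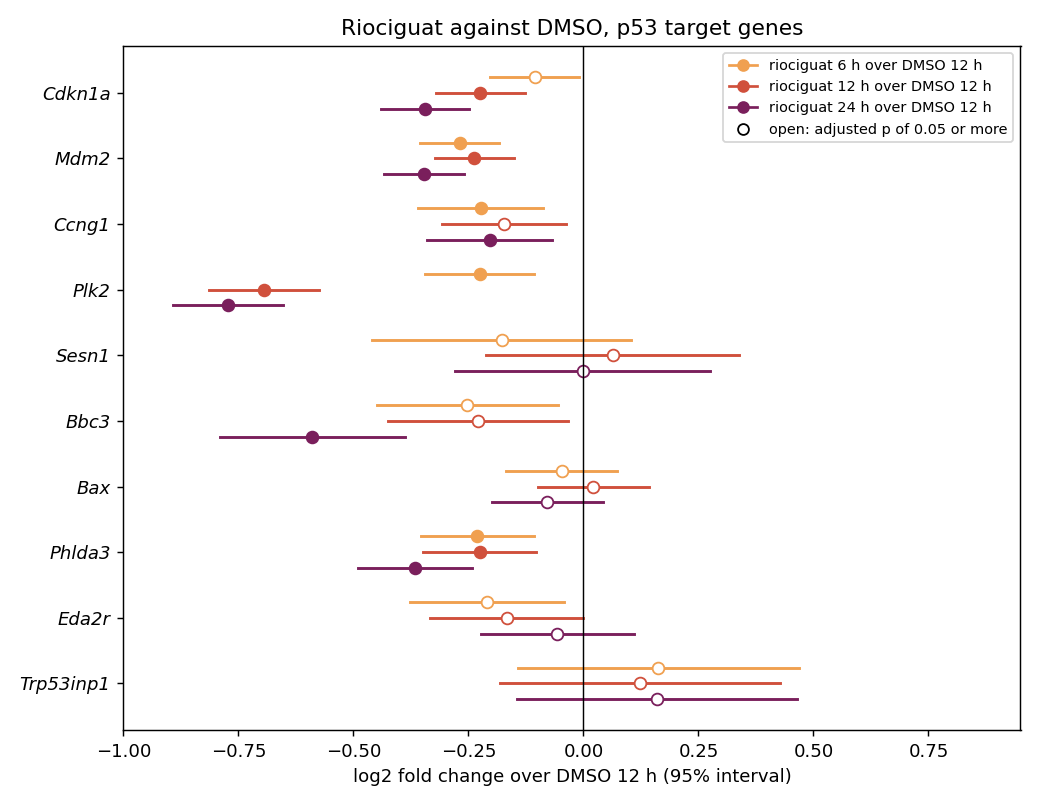
Log2 fold change of each p53 target gene (rows) in riociguat cultures over DMSO 12 h cultures (x axis) after 6, 12 and 24 h, with 95% intervals (edgeR, n = 3 libraries per group). Filled points passed adjusted p under 0.05. Plk2 lies farthest left at 12 and 24 h (-0.69 and -0.77), while Bax, Sesn1, Eda2r and Trp53inp1 have open points throughout.

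The level of the 10 genes spanned a wide range when counts were set per kilobase of exon. In DMSO cultures Cdkn1a was highest at 231 ± 11.4 CPM per kilobase (SD, n = 3). Bax followed at 113 ± 3.93, Phlda3 at 101 ± 5.01 and Ccng1 at 101 ± 11.9 CPM per kilobase, and the last of these overlapped both others within its SD. Plk2 was at 78.1 ± 5.04 and Mdm2 at 47.3 ± 1.81 CPM per kilobase. Trp53inp1 and Eda2r did not differ beyond their spread, at 14.1 ± 4.31 and 13.9 ± 1.95 CPM per kilobase. Bbc3 was at 9.39 ± 0.163 and Sesn1 lowest at 2.45 ± 0.205 CPM per kilobase, and these genes also had the fewest counts, 219 to 483 per library for Bbc3 and 118 to 246 for Sesn1.

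**Figure D2:**
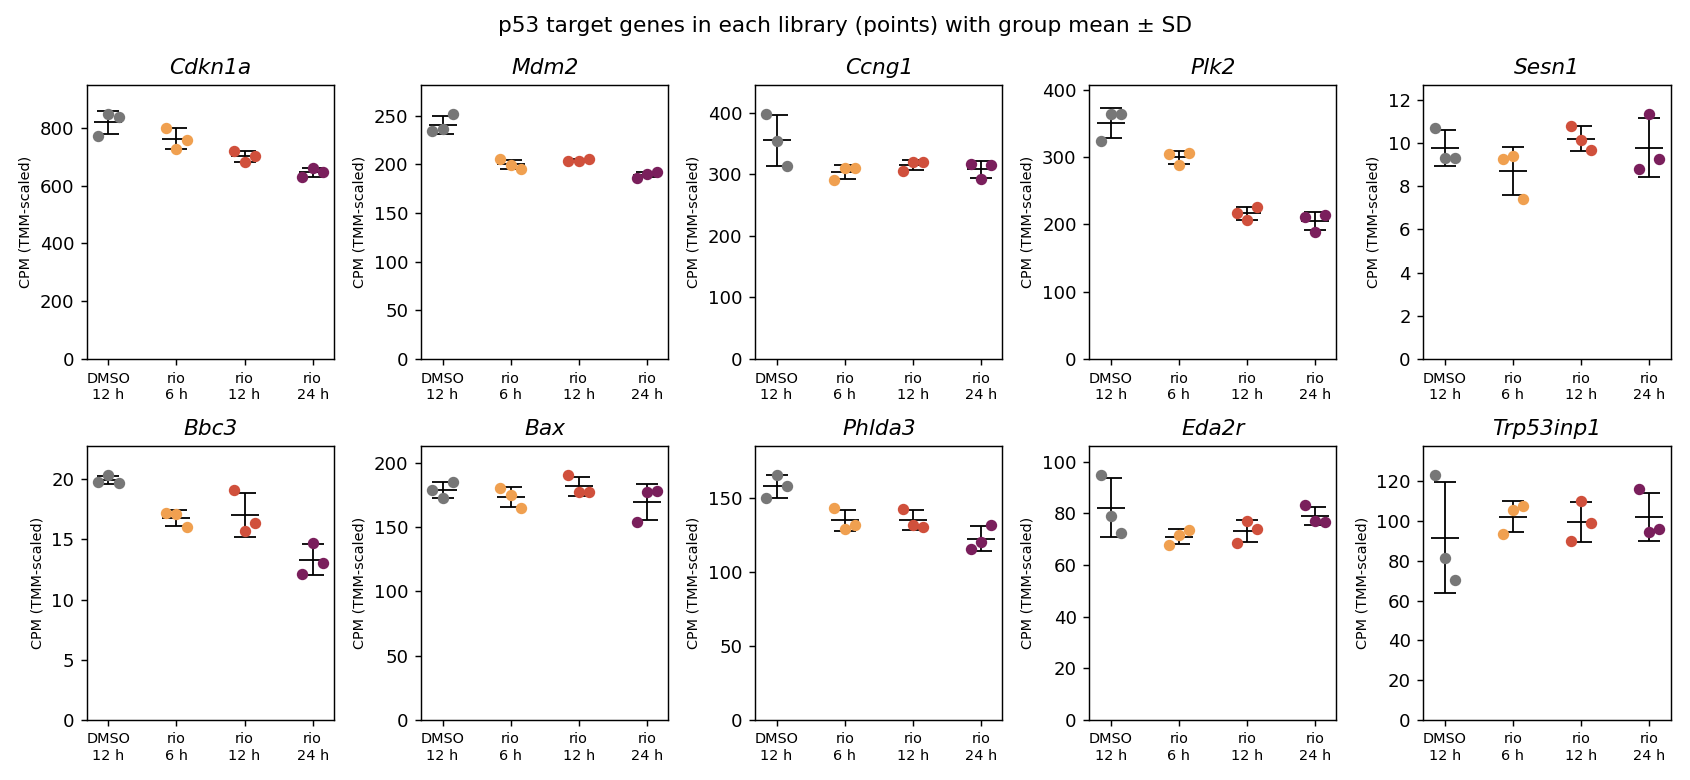
TMM-scaled CPM (y axis, from 0) of each p53 target gene in the 12 libraries (points) by group, with mean ± SD (n = 3). The group means of Cdkn1a and Plk2 are lower at each longer exposure. No step between neighbouring groups was called for Cdkn1a, nor was that from 12 to 24 h for Plk2. Mdm2 and Phlda3 are lower in all riociguat groups, and Trp53inp1 spreads widely in DMSO (70.1 to 123 CPM).

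Among the genes that act on the cell cycle, Cdkn1a (ENSMUSG00000023067, GRCm38 chromosome 17, 29090976 to 29100727, plus strand) encodes p21, the inhibitor of cyclin-dependent kinases through which p53 halts the cycle. It has 2 start sites in RefSeq, and the window at the upstream start holds an adjacent pair of p53 decamers, 51 bases before that start, which is why it is shown, 250 bases before to 50 bases after the start at chr17:29090729-29091028, plus strand, with the pair in capitals.
Cdkn1a: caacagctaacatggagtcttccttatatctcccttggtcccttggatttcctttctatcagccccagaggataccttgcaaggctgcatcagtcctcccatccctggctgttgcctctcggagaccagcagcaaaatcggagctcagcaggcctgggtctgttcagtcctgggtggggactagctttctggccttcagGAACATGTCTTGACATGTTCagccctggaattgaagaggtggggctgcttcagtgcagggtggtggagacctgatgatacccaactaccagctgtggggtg
A decamer was searched as 3 purines, a C, 2 bases that are each A or T, a G and 3 pyrimidines, a pattern that reads alike on both strands. An adjacent pair with at most 1 mismatch, an allowance chosen after this sequence was seen, occurred in 29 of 32851 RefSeq promoter windows of the same length (0.0883%). A single exact decamer occurred in 8.36% of windows. Of the 13 windows of the members, 5 held a decamer and 2 held a pair, those of Cdkn1a and Ccng1. A match describes the letters and does not show binding.

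Cdkn1a stood at 773, 847 and 838 CPM in DMSO libraries, at 799.6, 728 and 758 CPM after 6 h of riociguat, at 719, 682 and 703 CPM after 12 h and at 628, 660.5 and 648 CPM after 24 h. All libraries of the 12 h and 24 h groups were below all DMSO libraries, while the 6 h group overlapped DMSO. The log2 fold change over DMSO was -0.22 ± 0.05 (SE) at 12 h (edgeR adjusted p = 0.00524) and -0.34 ± 0.05 at 24 h (edgeR adjusted p = 5.49e-05). At 6 h it was -0.11 ± 0.05 and did not pass (edgeR adjusted p = 0.17), with a 95% interval of -0.20 to -0.01. The 12 h call was lost without riociguat 12 h replicate 2 (edgeR adjusted p = 0.0511, the highest of 11 alternatives that began at 7.53e-05; these and later ranges leave out the fit with a mitochondrial term, given separately), and the 6 h value passed without DMSO replicate 1 (edgeR adjusted p = 0.0459, in a range of 0.0459 to 0.453). The overlapping antisense gene AC167363.2 had at most 17 counts in a library.

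Plk2, a polo-like kinase gene with roles in centriole duplication and in damage and stress responses (ENSMUSG00000021701, chromosome 13, 110395046 to 110400844, plus strand), had the largest change of the 10 genes at 12 and 24 h. Its promoter is shown because it is the only member window with the cyclic AMP response element TGACGTCA, the site of CREB-family factors, in capitals (chr13:110394794-110395093, plus strand).
Plk2: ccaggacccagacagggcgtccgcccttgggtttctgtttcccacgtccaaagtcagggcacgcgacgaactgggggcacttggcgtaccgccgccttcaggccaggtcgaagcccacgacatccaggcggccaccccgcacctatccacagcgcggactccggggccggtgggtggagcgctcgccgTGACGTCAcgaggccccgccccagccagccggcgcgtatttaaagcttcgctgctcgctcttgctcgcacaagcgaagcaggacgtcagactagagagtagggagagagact
The element lay 62 bases before the start and was present in 1.79% of the RefSeq windows. The window held no p53 decamer, and none of the 13 member windows held a CArG box, the motif of serum response factor, which 1.63% of all windows had.

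Plk2 was at 325, 364 and 364 CPM in DMSO libraries, at 305, 289 and 306 CPM after 6 h of riociguat, at 217, 207 and 226 CPM after 12 h and at 212, 189 and 214 CPM after 24 h. Every riociguat library was below every DMSO library, and the 12 h and 24 h libraries were all below the 6 h ones. The log2 fold change over DMSO was -0.69 ± 0.06 (SE) at 12 h (edgeR adjusted p = 3.53e-07) and -0.77 ± 0.06 at 24 h (edgeR adjusted p = 6.44e-08). At 6 h it was -0.23 ± 0.06 (edgeR adjusted p = 0.0159). Only the 6 h call depended on single libraries, being lost when DMSO replicate 2 (edgeR adjusted p = 0.0876), DMSO replicate 3 (0.0837) or riociguat 6 h replicate 2 (0.0827) was omitted, in a range over 11 alternatives of 0.000535 to 0.0876.

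Ccng1 encodes cyclin G1, which recruits a phosphatase to MDM2 (ENSMUSG00000020326, chromosome 11, 40748552 to 40755311, minus strand). Its promoter is the other member window with an adjacent pair of p53 decamers, in capitals, 195 bases before the start (chr11:40755237-40755536, minus strand).
Ccng1: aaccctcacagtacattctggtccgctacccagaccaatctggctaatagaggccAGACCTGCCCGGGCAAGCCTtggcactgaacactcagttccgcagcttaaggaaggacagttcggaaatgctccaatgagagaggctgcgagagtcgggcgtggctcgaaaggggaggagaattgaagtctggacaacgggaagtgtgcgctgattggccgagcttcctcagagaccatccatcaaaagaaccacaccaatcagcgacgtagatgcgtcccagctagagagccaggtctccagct
Ccng1 was at 397, 353 and 314 CPM in DMSO libraries, at 291, 309 and 311 CPM after 6 h of riociguat, at 305, 320.4 and 319 CPM after 12 h and at 317, 292 and 315 CPM after 24 h. The 6 h libraries lay just below the lowest DMSO library, and the other groups overlapped DMSO, whose own spread was wide. The log2 fold change was -0.22 ± 0.06 (SE) at 6 h (edgeR adjusted p = 0.0369), -0.17 ± 0.06 at 12 h (edgeR adjusted p = 0.159) and -0.20 ± 0.06 at 24 h (edgeR adjusted p = 0.0445). The 12 h value passed in 2 of the 11 alternatives (edgeR or DESeq2 adjusted p from 0.0195 to 0.454). Both calls, at 6 and 24 h, were fragile. With only the compared groups in the fit, edgeR adjusted p was 0.097 at 6 h and 0.115 at 24 h, and RLE factors also lost the 24 h call (edgeR adjusted p = 0.0565). Without DMSO replicate 1, the highest library, edgeR adjusted p was 0.134 at 6 h (range over alternatives 0.000449 to 0.134) and 0.183 at 24 h (range 0.00185 to 0.183), and leaving out any riociguat library of the group, or DMSO replicate 2, also lost them.

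In the feedback and signalling arm, Mdm2 (ENSMUSG00000020184, chromosome 10, 117688875 to 117710758, minus strand) encodes the ligase that marks p53 for degradation. It stood at 235, 236 and 251 CPM in DMSO libraries, at 205, 199 and 195 CPM after 6 h of riociguat, at 204, 203 and 205 CPM after 12 h and at 186, 190.1 and 192 CPM after 24 h. No riociguat library reached the lowest DMSO library. The log2 fold change was -0.27 ± 0.04 (SE) at 6 h (edgeR adjusted p = 3.2e-04), -0.24 ± 0.04 at 12 h (edgeR adjusted p = 0.00106) and -0.35 ± 0.04 at 24 h (edgeR adjusted p = 1.52e-05), and all 11 alternatives kept each call. The promoters of Mdm2, Sesn1 and Bax each held a single exact p53 decamer, shown in capitals within 15 bases on each side for comparison with the pairs of Cdkn1a and Ccng1, at chr10:117710920-117710959 (minus strand), chr10:41887251-41887290 (plus strand) and chr7:45467075-45467114 (minus strand).
Mdm2: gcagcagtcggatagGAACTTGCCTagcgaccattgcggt
Sesn1: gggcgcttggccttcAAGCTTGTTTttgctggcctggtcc
Bax: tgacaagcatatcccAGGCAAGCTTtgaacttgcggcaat
The p53-responsive promoter of Mdm2 is known to lie in an intron, outside the window searched. No window of Bbc3, Phlda3 or Eda2r held an exact decamer, and no promoter of Trp53inp1 was searched.

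Phlda3 encodes a small pleckstrin-homology protein that competes with AKT for membrane lipids (ENSMUSG00000041801, chromosome 1, 135766119 to 135769136, plus strand). It was at 149.7, 165 and 158 CPM in DMSO libraries, at 143, 129 and 132 CPM after 6 h of riociguat, at 142, 132 and 131 CPM after 12 h and at 116, 120.1 and 131 CPM after 24 h, with every riociguat library below every DMSO library. The log2 fold change was -0.23 ± 0.06 (SE) at 6 h (edgeR adjusted p = 0.0176), -0.22 ± 0.06 at 12 h (edgeR adjusted p = 0.0286) and -0.37 ± 0.06 at 24 h (edgeR adjusted p = 3.49e-04). The 24 h call held in all 11 alternatives. Among omissions of single libraries, the 12 h and 6 h calls were each lost when replicate 2 or 3 of either DMSO or that riociguat group was left out. Over the alternatives the adjusted p from edgeR or DESeq2 ran from 0.00447 to 0.166 at 12 h and from 0.00165 to 0.1 at 6 h.

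Sesn1 encodes sestrin 1, which restrains mTORC1 signalling (ENSMUSG00000038332, chromosome 10, 41809935 to 41908424, plus strand). It was at 9.30 to 10.7 CPM in DMSO, 7.41 to 9.39 CPM after 6 h of riociguat, 9.68 to 10.8 CPM after 12 h and 8.79 to 11.3 CPM after 24 h, and the values of all riociguat groups overlapped those of DMSO. No comparison passed, and at this depth the 95% interval of the log2 fold change at 12 h ran from -0.21 to 0.34. Its relative Sesn2, also a p53 target, fell at 24 h to 94.7 CPM, against 115 CPM in DMSO, a log2 fold change of -0.29 ± 0.05 (SE; edgeR adjusted p = 9.87e-04). At 6 and 12 h Sesn2 had log2 fold changes of -0.11 ± 0.05 and -0.15 ± 0.05, which did not pass.

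Of the apoptosis genes Bbc3 and Bax, Bbc3 was called lower than DMSO at 24 h only and Bax at no time. Bbc3 encodes PUMA, a BH3-only protein that frees BAX and BAK to permeabilise mitochondria (ENSMUSG00000002083, chromosome 7, 16308393 to 16318205, plus strand). It was at 19.8, 20.3 and 19.7 CPM in DMSO libraries, at 17.2, 17.1 and 16.1 CPM after 6 h of riociguat, at 19.1, 15.7 and 16.4 CPM after 12 h and at 12.1, 14.7 and 13.1 CPM after 24 h. All riociguat libraries were below all DMSO libraries, and the 24 h ones were below all others. The log2 fold change at 24 h was -0.59 ± 0.10 (SE; edgeR adjusted p = 3.78e-04), and all 11 alternatives kept it. At 6 and 12 h it was -0.25 ± 0.09 and -0.23 ± 0.09 and did not pass (edgeR adjusted p = 0.105 and 0.203).

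Bax encodes the pore-forming protein downstream of PUMA (ENSMUSG00000003873, chromosome 7, 45461697 to 45466898, minus strand). It was at 178, 173 and 185 CPM in DMSO libraries, at 180.0, 175 and 165 CPM after 6 h of riociguat, at 190.4, 177 and 177 CPM after 12 h and at 154, 177 and 178 CPM after 24 h. The groups overlapped at every time. Its log2 fold changes were -0.05 ± 0.06, 0.02 ± 0.06 and -0.08 ± 0.06 (SE) at 6, 12 and 24 h, with a 95% interval at 12 h of -0.10 to 0.14. The annotated gene Gm45808, which overlaps Bax on the same strand and can share its reads, had at most 8 counts in a library.

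Eda2r encodes a receptor of the TNF receptor family that binds ectodysplasin A2 (ENSMUSG00000034457, chromosome X, 97333840 to 97377216, minus strand), and Trp53inp1 a nuclear and autophagy protein that promotes p53 activity (ENSMUSG00000028211, chromosome 4, 11156431 to 11174379, plus strand). Eda2r was at 94.8, 79.1 and 72.5 CPM in DMSO libraries, at 67.7, 71.6 and 73.5 CPM after 6 h of riociguat, at 68.5, 77.2 and 73.7 CPM after 12 h and at 83.1, 77.0 and 76.7 CPM after 24 h. The groups overlapped, and its log2 fold changes of -0.21 ± 0.08 at 6 h, -0.17 ± 0.08 at 12 h and -0.06 ± 0.08 at 24 h (SE) did not pass. Without DMSO replicate 3 the 6 h value passed (edgeR adjusted p = 0.0333, in a range of 0.0285 to 0.434 over the alternatives without a mitochondrial term).

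Trp53inp1 was at 123, 81.6 and 70.1 CPM in DMSO libraries, at 93.5, 106 and 108 CPM after 6 h of riociguat, at 90.1, 110.1 and 98.8 CPM after 12 h and at 116, 94.6 and 95.9 CPM after 24 h. DMSO replicate 1 was the highest of all 12 libraries, and the remaining DMSO libraries were the lowest. The log2 fold changes of 0.16 ± 0.14, 0.12 ± 0.14 and 0.16 ± 0.14 (SE) at 6, 12 and 24 h did not pass. Without DMSO replicate 1 they became 0.43, 0.39 and 0.43, and all passed (edgeR adjusted p = 0.0066, 0.0161 and 0.00508). Over the 11 alternatives the edgeR or DESeq2 adjusted p reached 0.985, 0.967 and 0.976.

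Within groups, the spread of several members moved with a property of the libraries. The order of Eda2r over the 3 libraries was the order of their mitochondrial share of counts in all 4 groups, which held for 0.368% of all tested genes. For Trp53inp1 and Ccng1 the orders matched in 3 of the 4 groups. Mdm2 and Bax ran in the opposite order in 3 of the 4 groups and Bbc3 in 2. Cdkn1a, Plk2 and Phlda3 ran in the opposite order in 1 group each, and Sesn1 in the same order in 1. With 3 libraries per group, an order matched in 1 group shows no link by itself. The percentage of all tested genes with such an order in 1, 2 or 3 groups was not computed, so these counts are a description only. Deviations from group means, on the log2 scale for genes, were also correlated with those of the mitochondrial share over the 12 libraries. The r was 0.97 for Eda2r and Trp53inp1, 0.83 for Ccng1 and 0.03 for Sesn1. It was -0.83 for Cdkn1a, -0.70 for Mdm2, -0.68 for Phlda3, -0.56 for Plk2, -0.52 for Bax and -0.49 for Bbc3. Over the 16036 tested genes the median r was -0.05, with 130 genes above 0.9 and 17 below -0.9. DMSO spanned most of this range, with mitochondrial shares of 4.51% in replicate 1, 2.99% in replicate 2 and 2.61% in replicate 3. In a fit with the mitochondrial share as a numeric term, added after the data were seen, Eda2r was called lower at 6 h (log2 fold change -0.24, edgeR adjusted p = 0.00154) and at 12 h (-0.28, edgeR adjusted p = 0.00107), and Ccng1 was also called lower at 12 h (-0.25, edgeR adjusted p = 0.00172). Trp53inp1 was then called higher at 24 h (0.18, edgeR adjusted p = 0.0242) and the 12 h call of Phlda3 was lost (-0.17, edgeR adjusted p = 0.0898). The part of RNA quality or cell composition in this spread was not tested.

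**Figure D3:**
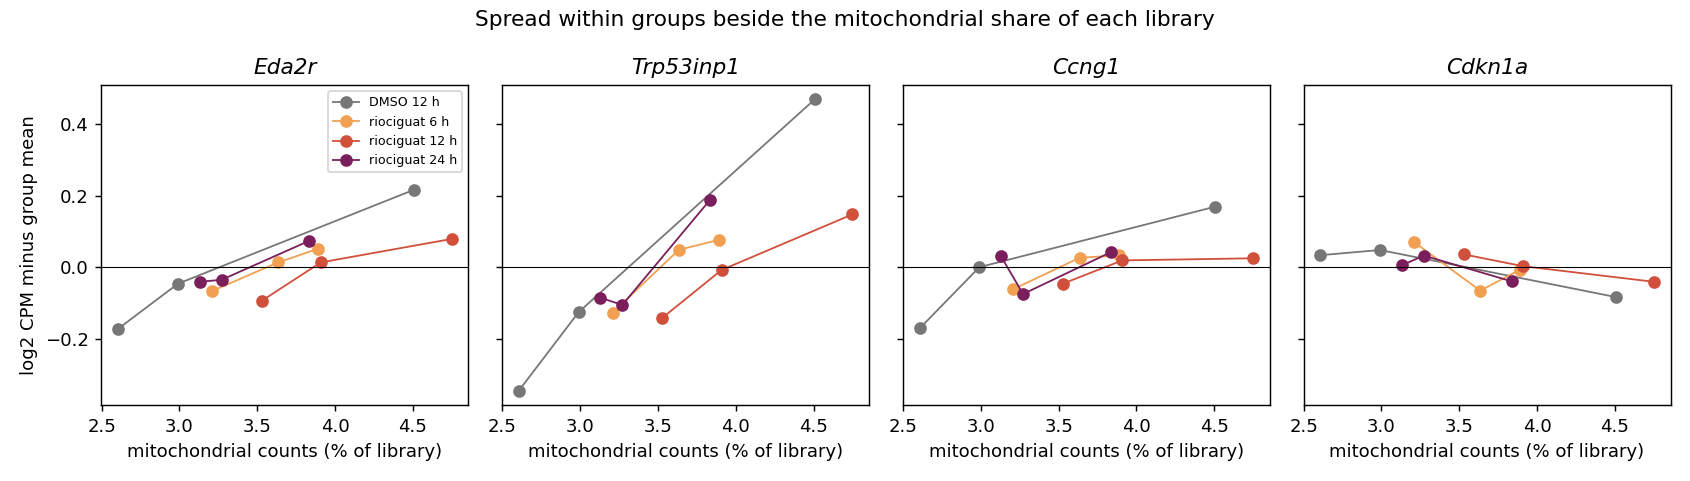
Log2 CPM of 4 p53 target genes minus the mean of their group (y axis) against the percentage of each library's counts from mitochondrial genes (x axis), 3 libraries per group joined by lines. Eda2r climbs with the mitochondrial share in all 4 groups and Trp53inp1 in 3, while within DMSO Cdkn1a is lowest in replicate 1, the library with the highest share (4.51%).

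Direct comparisons between exposure times asked which genes differed with the length of exposure, which varied together with the time of addition. Between 24 h and 6 h, 3 of the 10 genes were called lower, beside 8.13% of all tested genes (7.16% were called higher and 15.3% either way). These were Plk2 (log2 fold change -0.55 ± 0.06, edgeR adjusted p = 2.75e-06), Cdkn1a (-0.24 ± 0.05, edgeR adjusted p = 0.00141) and Bbc3 (-0.34 ± 0.10, edgeR adjusted p = 0.025). The Bbc3 call was lost without riociguat 6 h replicate 1 or 2 or riociguat 24 h replicate 1 or 3 (edgeR adjusted p up to 0.124, from 0.0171 over the alternatives). Between 12 h and 6 h only Plk2 was called, at -0.47 ± 0.06 (SE; edgeR adjusted p = 4.25e-05), 1 of the 10 genes beside 3.52% of all genes called lower, 2.57% called higher and 6.09% either way. Between 24 h and 12 h none was called by edgeR or by DESeq2, beside 1.71% called lower, 1.37% called higher and 3.08% either way, although 4 had an unadjusted p under 0.05 with a negative fold change, as did 1245 of all 16036 genes. Bbc3 was nearest there, at -0.36 ± 0.10 (edgeR adjusted p = 0.0517), and it passed without riociguat 24 h replicate 2 (edgeR adjusted p = 0.0351, in a range of 0.0351 to 0.259). With the mitochondrial share as a term, 5 members were called between 24 h and 12 h, with Cdkn1a (-0.17), Bbc3 (-0.41) and Phlda3 (-0.20) lower and Eda2r (0.23) and Trp53inp1 (0.27) higher at 24 h. That fit added Phlda3 (-0.15) as lower and Eda2r (0.18) as higher between 24 h and 6 h, and between 12 h and 6 h it added Trp53inp1 (-0.22) as lower. Mdm2, lower than DMSO at every time, was not called between exposure times in either fit. Phlda3, also lower than DMSO at every time, was called between them only with that term. The 95% interval for Mdm2 between 24 h and 6 h was -0.16 to 0.01.

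The wider pathway was read from lists chosen with earlier results of these data known. Among 19 regulators of p53, 17 were tested. Trp53 itself was at 197 ± 8.94 CPM after 6 h of riociguat and at 235 ± 3.44 CPM in DMSO (SD, n = 3 each). It was thus lower at 6 h by edgeR, with a log2 fold change of -0.25 ± 0.05 (adjusted p = 0.0053). At 12 h its value was -0.18 ± 0.05 (edgeR adjusted p = 0.0507) and at 24 h -0.12 ± 0.05 (edgeR adjusted p = 0.164). Every riociguat library was below every DMSO library for Trp53 at each time. Mdm4, which encodes the partner of MDM2 in restraining p53, had log2 fold changes of 0.03 to 0.11 and did not pass. Hipk2, a kinase that phosphorylates p53, fell at 12 h to 87.6 CPM, against 135 CPM in DMSO (log2 fold change -0.62 ± 0.05, edgeR adjusted p = 5.14e-07), and at 24 h by 0.55 ± 0.05 on the log2 scale. Atm, the damage-sensing kinase gene, and Cop1, another p53 ubiquitin ligase gene, rose at 24 h by 0.23 ± 0.05 and 0.23 ± 0.06. In all, 1 of 17 regulators fell at 6 h, 1 fell at 12 h, and 1 fell and 2 rose at 24 h by edgeR. DESeq2 called 1 lower at 6 h, 2 lower at 12 h, and 1 lower and 2 higher at 24 h. By edgeR, falls took 5.24%, 3.48% and 7.41% of all tested genes at these times, and rises 4.48%, 2.18% and 5.94%.

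A list of 31 further p53 targets, none of them among the 10, showed more falls than rises. At 6 h 7 fell and 1 rose, at 12 h 5 fell and 1 rose, and at 24 h 12 fell and 2 rose. Of all tested genes, 5.24%, 3.48% and 7.41% fell and 4.48%, 2.18% and 5.94% rose at these times. The median log2 fold change of the list was -0.16, -0.10 and -0.18 at 6, 12 and 24 h. Epha2, a receptor tyrosine kinase gene, fell by 0.29 ± 0.04, 0.25 ± 0.04 and 0.29 ± 0.04 on the log2 scale at 6, 12 and 24 h. Gtse1, whose product is a microtubule-associated restrainer of p53, fell by 0.39 ± 0.07, 0.40 ± 0.07 and 0.44 ± 0.07. Btg2, an antiproliferative gene, fell by 0.28 ± 0.06 at 12 h and 0.39 ± 0.06 at 24 h. Zmat3, an RNA-binding protein gene, fell by 0.21 ± 0.05, 0.24 ± 0.05 and 0.24 ± 0.05 at 6, 12 and 24 h. At 6 h Ei24 fell by 0.23 ± 0.05 and the DNA polymerase gene Polk by 0.40 ± 0.09. Ddit4, a stress-induced inhibitor of mTORC1 also switched on by other factors, went the other way, with log2 fold changes of 0.35 ± 0.07, 0.54 ± 0.07 and 0.46 ± 0.07.

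Among 22 relatives of the 10 genes by protein family, 21 were tested, and 3 rose and 1 fell at 6 h, 2 rose and 1 fell at 12 h, and 3 rose and 3 fell at 24 h. The shares of all tested genes at these times were 4.48%, 2.18% and 5.94% for rises and 5.24%, 3.48% and 7.41% for falls. Trp53inp2, the relative of Trp53inp1, rose to 72.4 CPM after 12 h of riociguat, against 57.4 CPM in DMSO (log2 fold change 0.34 ± 0.07, edgeR adjusted p = 0.00725). Its rise at 6 h was 0.47 ± 0.07 (edgeR adjusted p = 3.06e-04). The value at 24 h, 0.16 ± 0.07, did not pass (edgeR adjusted p = 0.17). Bmf, a BH3-only gene like Bbc3, rose, with log2 fold changes of 0.89 ± 0.14, 0.64 ± 0.14 and 0.80 ± 0.14 (SE) at 6, 12 and 24 h, averaging 10.9 CPM after 12 h of riociguat, against 7.01 CPM in DMSO. Bcl2l1, which encodes the survival protein BCL-XL, fell by 0.21 ± 0.05, 0.24 ± 0.05 and 0.24 ± 0.05 on the log2 scale, and its relative Bcl2 rose by 0.25 ± 0.08 at 6 h. At 24 h Cdkn1b, which encodes the kinase inhibitor p27, rose by 0.34 ± 0.08 while Cdkn1a was lower. Among polo-like kinase genes at 24 h, Plk3 fell by 0.43 ± 0.10 and the mitotic Plk1 rose by 0.69 ± 0.15. Plk1 is also on the list of cell cycle genes below, so its rise is counted in both lists.

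Genes of replication and mitosis that p53 is known to lower through p21 were examined beside Cdkn1a. At 6 h, when Cdkn1a did not pass, 9 of these 16 genes were lower than in DMSO, at 12 h none was called (0 of 16 by edgeR, 0 at an unadjusted p under 0.05 and 0 by DESeq2), and at 24 h 6 were higher. DESeq2 called 11 of the 16 lower at 6 h and 8 higher at 24 h. Of all tested genes, 5.24% were lower at 6 h, 3.48% lower and 2.18% higher at 12 h, and 5.94% higher at 24 h, by edgeR. Mki67, the proliferation marker, was at 45.7 ± 1.90 CPM in DMSO and at 24.9 ± 2.97, 43.2 ± 2.66 and 65.3 ± 5.45 CPM after 6, 12 and 24 h of riociguat (SD, n = 3 each). Its log2 fold change was -0.87 ± 0.09 at 6 h (edgeR adjusted p = 3.79e-06) and 0.52 ± 0.08 at 24 h (edgeR adjusted p = 3.07e-04). Top2a, the replication and mitosis topoisomerase gene, fell by 0.74 ± 0.09 at 6 h and rose by 0.49 ± 0.09 at 24 h. Between 24 h and 6 h all 16 genes were higher at 24 h, beside 7.16% of all tested genes, and over the same pair Cdkn1a was lower, as given above.

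**Figure D4:**
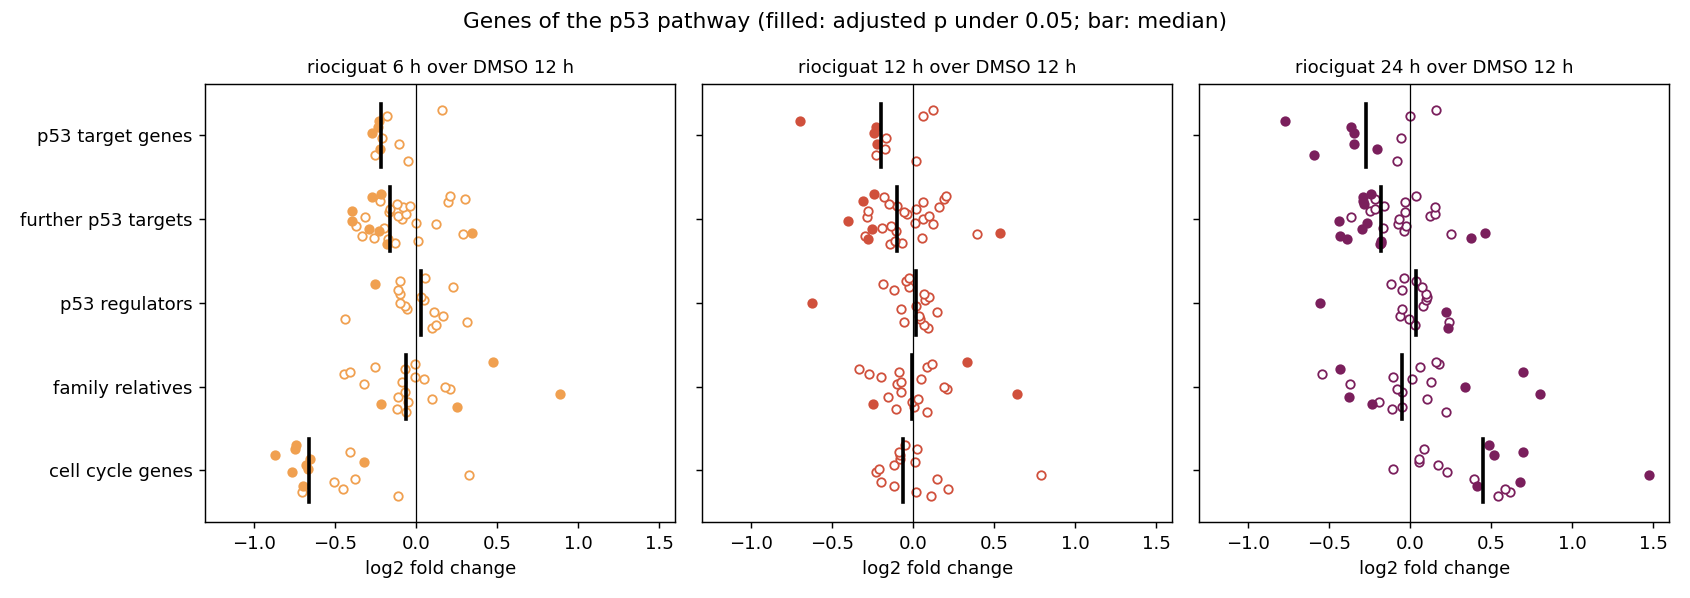
Log2 fold change over DMSO 12 h (x axis) of each tested gene in 5 lists (rows) after 6, 12 and 24 h of riociguat, with list medians as bars and filled points for adjusted p under 0.05. The medians of the 10 p53 target genes (-0.22, -0.20, -0.27) and of the further targets (-0.16, -0.10, -0.18) lie left of 0 at each time, and that of the cell cycle genes is at -0.66, -0.06 and 0.45.

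The genes whose profile over the 12 libraries was most like those of Cdkn1a and Mdm2 were found among 10689 named genes with a mean of at least 5 CPM, by Pearson correlation of log2(CPM + 1), as a description. For Cdkn1a they were Arhgap27 (r = 0.98), Sidt2 (0.98), Prnp (0.97), Ppp1r13l (0.97) and Fgfr1 (0.96). For Mdm2 they were Tgm2 (0.98), Spsb1 (0.97), Timp2 (0.97), Tnfaip3 (0.96) and Col5a2 (0.95). No gene was on both lists. The libraries share treatments and depth, so these values describe likeness across 4 groups of 3 and nothing more.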

How the data were processed

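RNA-seq of 12 mouse HSC cultures was analysed, with 3 libraries in each of 4 groups. The authors deposited expected counts per Ensembl gene in 1 table, and the submitters' processing notes name FastQC, fastp, Salmon, DESeq2 and the build GRCm38, without versions or roles. The values were whole numbers, and rounding changed 0 of them. Of 53452 genes, 53355 had a symbol and were found in GENCODE mouse release 21, which gave the positions. All 12 value columns were matched to samples by name.

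Genes were filtered with edgeR's filterByExpr, scaled by TMM and tested with edgeR 4.0.16 (quasi-likelihood, two-sided, R 4.3.3) in 1 fit over all libraries with group as the only term, in 6 comparisons, with Benjamini-Hochberg adjustment over 16036 genes per comparison. The standard error is the log2 fold change divided by the root of F, and 95% intervals use 16.8 degrees of freedom. The steps were tested on simulated data. Alternatives were RLE factors, no filter, DESeq2 1.42.0, only the groups compared, a replicate block, each library left out, and the mitochondrial share as a term. The last was chosen after the data were seen and is not among the 11 alternatives over which ranges and kept calls are given for each gene.

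The 10 genes and all lists were chosen with earlier results of these data known. All 10 genes are named. From other lists, the called genes with the smallest p are named, at most 5 per list and comparison, plus Trp53, Mdm4 and Sesn2. Promoters came from RefSeq (GRCm38.p6, 9 of the 10 genes matched). No libraries were found to be duplicates. Counts without molecular identifiers are not independent molecules.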

Additional observations from a re-analysis of the deposited data

Results flagged for a closer look

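In 4 cases the level of a p53 target gene differed between riociguat exposure times by a direct test. Plk2 was lower after 12 h than after 6 h (log2 fold change -0.47, edgeR adjusted p = 4.25e-05) and lower after 24 h than after 6 h (-0.55, edgeR adjusted p = 2.75e-06), and both calls held in all 11 alternatives. Cdkn1a was lower after 24 h than after 6 h (-0.24, edgeR adjusted p = 0.00141), and this call also held in all 11. Bbc3 was lower after 24 h than after 6 h (-0.34, edgeR adjusted p = 0.025), a call kept in 6 of these 11 alternatives, whose adjusted p ran from 0.0171 to 0.124. Exposure time and the time of addition after the medium change cannot be told apart in these comparisons.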

How the results depend on the processing

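The counts of p53 target genes called, 4, 4 and 6 at 6, 12 and 24 h against DMSO, stayed within 1.5 times under RLE factors, no low-count filter, DESeq2, only the groups compared and the mitochondrial term. With one library left out they ran from 1 to 5, 2 to 5 and 5 to 6. Between times, the count for 12 h against 6 h was 1 throughout these omissions, that for 24 h against 12 h was 0 to 1 and that for 24 h against 6 h was 2 to 3. All genes called then numbered 955 to 1852, 510 to 1262 and 1395 to 2566 at 6, 12 and 24 h against DMSO, and 596 to 836, 318 to 432 and 1772 to 2117 between 12 and 6 h, 24 and 12 h, and 24 and 6 h. Between 24 h and 12 h, no low-count filter gave 1 member and 838 genes, and the mitochondrial term gave 5 members and 1006 genes. The mitochondrial term also gave 2 members between 12 h and 6 h and 5 between 24 h and 6 h. The cause of these shifts was not tested.

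Directions reversed only for values that did not pass. Sesn1 at 24 h against DMSO was 0.00801 with RLE factors, 0.00763 without a filter, 0.00417 with only the groups compared and 0.00734 in DESeq2. Trp53inp1 between 24 h and 6 h was 0.00373 with RLE factors, 0.00388 with only the groups compared, 0.00588 in DESeq2 and 0.0578 with the mitochondrial term. That term also gave -0.0977 for Trp53inp1 at 12 h against DMSO, -0.00858 for Ccng1 and -0.0424 for Eda2r between 12 h and 6 h, and 0.0495 for Ccng1 between 24 h and 12 h. With one library left out, ranges against DMSO crossed 0 for Bax (-0.00741 to 0.0552) and Trp53inp1 (-0.0275 to 0.39) at 12 h, and for Sesn1 (-0.105 to 0.0824) and Eda2r (-0.127 to 0.0592) at 24 h. Between 12 h and 6 h they did so for Bbc3 (-0.0621 to 0.0878), Phlda3 (-0.0309 to 0.0509) and Trp53inp1 (-0.112 to 0.0317). Between 24 h and 12 h they did so for Ccng1 (-0.0492 to 0.00797), Sesn1 (-0.176 to 0.0120) and Trp53inp1 (-0.0617 to 0.116). Between 24 h and 6 h they did so for Ccng1 (-0.00316 to 0.0636), Bax (-0.0661 to 0.0445) and Trp53inp1 (-0.0970 to 0.0560).

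Replicate numbers are shared across groups, but the libraries share only a number: deviations of 18 same-numbered pairs correlated at -0.33 to 0.29, and 3 of 12 libraries correlated best with their own number. With a replicate block, 3, 3 and 5 members were called at 6, 12 and 24 h against DMSO, and 1, 0 and 3 between 12 and 6 h, 24 and 12 h, and 24 and 6 h. The calls not made under the block were Ccng1 at 6 h and 24 h (edgeR adjusted p = 0.0608 and 0.069) and Phlda3 at 12 h (0.0548).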
